A study of Homo sapiens with 6 samples.

Results

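The genes described here encode the ligands and receptors of axon guidance. They are the semaphorins with their plexin and neuropilin receptors, the ephrins with the Eph receptors, the SLIT proteins with the ROBO receptors, and the netrins with the UNC5 receptors. A gene was taken when the array annotation gave a probe set its symbol alone and that symbol belonged to one of these families. This gave 69 of 19775 genes, 37 in ligand families and 32 in receptor families, each represented by its brightest probe set, whose mean over the 6 arrays was the highest for that gene. Expression was measured in IKPRAB-36, a line of human Ishikawa endometrial cancer cells stably transfected with both progesterone receptor isoforms, PRA and PRB. Cells were grown for 48 h with 1 nM medroxyprogesterone acetate (MPA, a synthetic progestin; arrays MPA 1 to 3) or without it (arrays control 1 to 3). Medium with charcoal-stripped serum, hygromycin and neomycin was shared by both groups. All values come from this 1 transfected line, and no source used here names the promoter that drives the receptors.

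Guidance cues steer cells as well as axons. Semaphorins, SLITs and netrins are secreted or membrane-anchored proteins that mostly act by repelling or attracting the cell that carries the receptor. Ephrins stay on the membrane, so that Eph signaling needs contact between cells and can run into both of them. Outside the nervous system the same families act in cell sorting, cell migration and the growth of vessels.

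Of the 69 genes, 3 were called lower with MPA and 0 were called higher: SEMA3F, a secreted class 3 semaphorin, PLXNA4, a plexin receptor of class 3 and class 6 semaphorins, and EFNB2, a membrane-bound ephrin. A call required a limma adjusted p under 0.05 over all probe sets and a change of at least 0.32 on the log2 scale in either direction, the minimum of the study's methods. The share called lower was 4.35% of these genes and 1.16% of all genes, and the share of all genes called higher was 1.74%. In 4 further genes, UNC5C, SEMA5A, SLIT2 and EPHB1, the brightest probe set missed the call but another probe set of the same gene was called lower.

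The region just upstream of the 3 called genes is shown here as the sequence context of the members the results turn on. The sequences are the 250 bases before the annotated start in RefSeq, build GRCh38.p14, written 5′ to 3′ on the strand of the gene. Capitals mark GGGCGG or its reverse complement CCGCCC, and CCAAT or its reverse complement ATTGG, where neighbouring matches can overlap.
SEMA3F, chr3:50154808-50155057, plus strand: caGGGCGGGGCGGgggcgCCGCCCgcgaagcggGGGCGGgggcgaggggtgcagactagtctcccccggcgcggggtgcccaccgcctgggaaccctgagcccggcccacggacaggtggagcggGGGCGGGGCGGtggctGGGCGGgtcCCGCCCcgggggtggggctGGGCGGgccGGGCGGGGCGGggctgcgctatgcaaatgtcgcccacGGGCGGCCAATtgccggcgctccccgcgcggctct
EFNB2, chr13:106535663-106535912, minus strand: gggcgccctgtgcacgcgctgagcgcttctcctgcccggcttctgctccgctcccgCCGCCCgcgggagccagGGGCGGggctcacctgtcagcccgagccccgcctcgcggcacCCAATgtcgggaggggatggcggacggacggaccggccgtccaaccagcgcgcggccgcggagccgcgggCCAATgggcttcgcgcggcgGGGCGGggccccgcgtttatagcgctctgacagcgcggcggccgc
PLXNA4, chr7:132576471-132576720, minus strand: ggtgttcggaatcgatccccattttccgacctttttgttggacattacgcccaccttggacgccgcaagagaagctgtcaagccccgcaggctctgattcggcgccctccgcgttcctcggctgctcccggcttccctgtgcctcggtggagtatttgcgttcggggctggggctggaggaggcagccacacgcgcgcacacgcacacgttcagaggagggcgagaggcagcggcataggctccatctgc
The SEMA3F window, the first of 3 annotated for this gene, held 12 matches to GGGCGG and 1 to CCAAT in 82% GC. The second SEMA3F window held 2 and 0 of these matches in 80.4% GC, and the last held 0 of each in 52.8% GC. The EFNB2 window held 3 and 2 of these matches, and the PLXNA4 window held 0 of each.

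Of the 69 genes, 58 matched the RefSeq promoter table, with 91 windows of this length. GGGCGG, searched on both strands, was in 64 of the 91 windows (70.3%) and in 42.6% of all 35097 windows. The median GC content was 64.8% in the windows of the guidance genes and 58% in all windows. CCAAT on either strand was in 27 windows (29.7%) and in 32% of all windows. AGAACA on either strand, a half-site that steroid receptors of the progesterone receptor group can bind, was in 2 windows (2.2%) and in 12.4% of all. The paired form of that site, GNACA and TGTNC separated by 3 bases, was in 1 window (1.1%) and in 0.328% of all. AGAACA was in 0 of the 9 windows of the 7 genes with a probe set called lower. These counts describe letters in a short window, not binding.

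All 6 arrays were used. Their median signals lay between 5.16 and 5.28 on the log2 scale, and the lowest correlation between arrays of a group was 0.987 among the MPA arrays and 0.99 among the control arrays. The spiked poly-A controls averaged 6.19 on MPA 3 and 7.5 to 8.23 on the remaining arrays. The 5 epithelial markers (EPCAM, CDH1, KRT8, KRT18 and KRT19) were above the array median on every array. Of these, SAM called 2 lower and limma 0: CDH1 read 7.65, 7.23 and 7.74 with MPA and 8.43, 7.93 and 8.55 in control (log2 fold change -0.76, adjusted p = 0.128), and EPCAM read 10.75, 10.67 and 10.59 with MPA and 11.08, 11.36 and 11.18 in control (log2 fold change -0.54, adjusted p = 0.0586). Of the 4 endothelial, 3 leukocyte and 3 fibroblast markers, 1 each was above the median on all arrays (PECAM1, CD3E and DCN), while CDH5, PTPRC and LUM were above it on none. Of the 5 neural markers, TUBB3, SNAP25, SYT1 and SOX10 were above the median on all arrays and STMN2 was not. The summed signal of the neural markers was 12.20 to 12.49 on the MPA arrays and 12.17 to 12.30 on the control arrays, and limma and SAM called 0 of the neural, endothelial, leukocyte and fibroblast markers, of which 0 had an unadjusted p under 0.05. The part of these markers was not tested. PGR, the gene of the progesterone receptor, had log2 signals of 10.47, 10.56 and 11.08 on the MPA arrays and 10.25, 10.24 and 10.17 on the control arrays. The groups did not overlap, and the log2 fold change of 0.48 was not called (95% interval 0.11 to 0.85, limma unadjusted p = 0.017, adjusted p = 0.294). Whether this probe set reads RNA of the transfected receptors was not tested. A lower signal in bulk RNA cannot tell fewer expressing cells from less RNA per cell. No source states that the 3 arrays of a group came from separate cultures, so a p-value here reflects the spread among these arrays alone, which may be technical.

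Across the set, 52 of 69 genes were above the array median on all 6 arrays and 12 on none. Of all 19775 genes, 12302 were above it on all arrays and 6202 on none, a dimmer set by share. The 3 called genes and the 13 with an unadjusted p under 0.05 were all among the 52. The comparisons with all genes that follow were not matched for signal. The members were chosen with earlier results of these data known, so no share set against all genes, here or elsewhere, can show an excess. The log2 fold change, MPA minus control, was below 0 in 39 of 69 genes (56.5%) and in 44.7% of all genes, with a median of -0.08 against 0.02. The MPA and control arrays did not overlap in 15 genes: MPA was lower in 12 (17.4%, where all genes gave 7.98%) and higher in 3 (4.35%, where all genes gave 8.96%). At an unadjusted p under 0.05, limma gave 12 genes with a lower signal (17.4%, where all genes gave 5.56%) and 1 with a higher signal (1.45%, where all genes gave 6.2%). SAM, the method of the study, called 6 genes lower (8.7%, where all genes gave 2.13%), the 3 above with EPHA2, SLIT2 and UNC5C, and 1 higher (PLXNA1, where all genes gave 3.1%). The 66 genes that limma did not call had log2 fold changes of -0.79 to 0.40 and adjusted p-values of 0.0682 to 0.998.

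**Figure D1:**
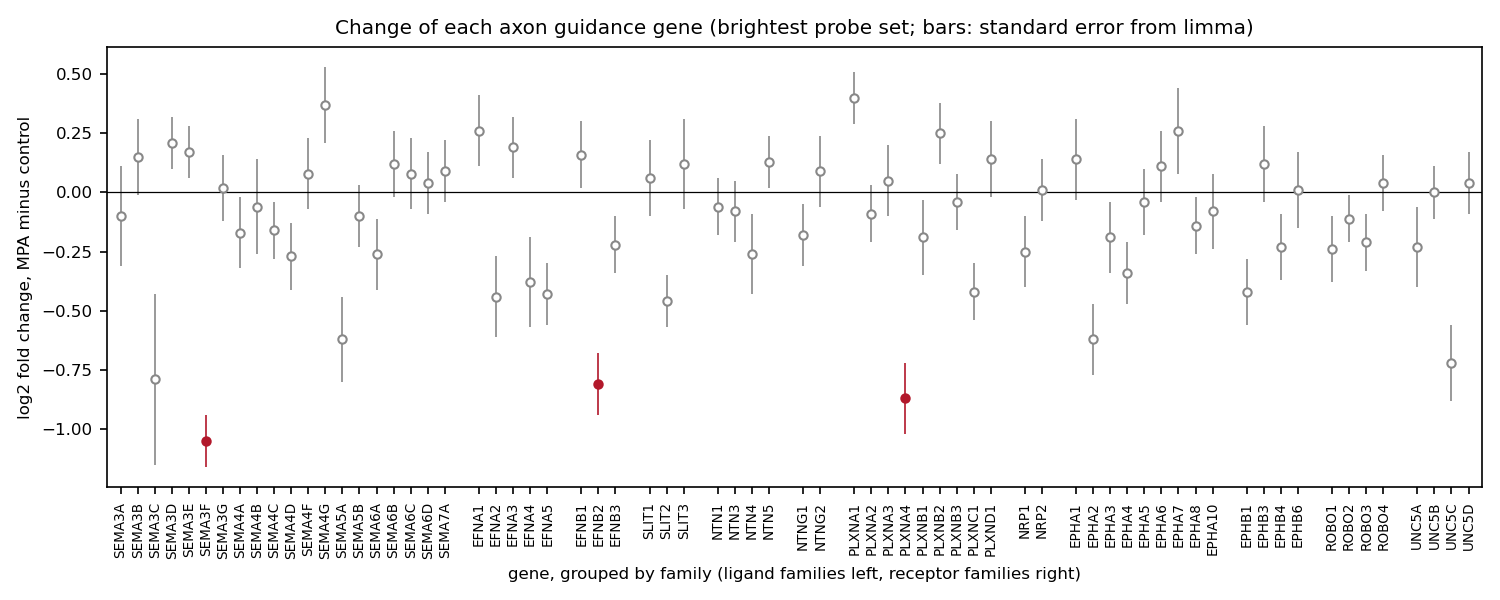
The log2 fold change (MPA minus control, vertical axis) of the brightest probe set of each of the 69 genes, grouped by family, with ligand families left and receptor families right; bars are the standard error from limma and filled points were called. SEMA3F, EFNB2 and PLXNA4 lie between -0.81 and -1.05, and the genes above 0 reach at most 0.40.

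Among the ligands, SEMA3F showed the lowest fold change. The SEMA3F protein binds neuropilin 2 and repels axons and endothelial cells. Its brightest probe set (35666_at) had log2 signals of 9.49, 9.22 and 9.35 on the MPA arrays and 10.51, 10.33 and 10.38 on the control arrays. The groups lay well apart, and every MPA array was lower than every control array. The mean was 9.36 ± 0.13 with MPA and 10.41 ± 0.09 in control (SD, n = 3 each), a log2 fold change of -1.05 (SE 0.11, 95% interval -1.31 to -0.79, adjusted p = 0.00225), or 0.483 of the control signal. The second probe set (206832_s_at) read 7.28, 7.19 and 7.65 with MPA and 8.48, 8.19 and 8.46 in control, a log2 fold change of -1.0 (adjusted p = 0.0118). A further one (209730_at) read 6.71, 6.75 and 7.23 with MPA and 7.84, 7.63 and 7.86 in control, a log2 fold change of -0.87 (adjusted p = 0.0278). All 3 SEMA3F probe sets were thus called lower. The brightest kept its call whichever array was left out (adjusted p 0.00598 to 0.0198). Probe set 206832_s_at lost it without MPA 1, control 1 or control 3 (up to 0.0805), and 209730_at lost it without MPA 1, MPA 2, control 1 or control 3 (up to 0.155).

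The other 6 class 3 semaphorins were not called. SEMA3C, a secreted semaphorin of heart and vessel development, had log2 signals of 6.38, 6.64 and 5.91 with MPA and 6.52, 7.99 and 6.79 in control. Control 2 lay far above the other arrays, the groups overlapped, and the log2 fold change of -0.79 was not called (95% interval -1.61 to 0.03, adjusted p = 0.512). SEMA3C is named here because of these values. SEMA3A, the founding axon repellent of the class, read 6.93, 7.07 and 6.97 with MPA and 6.68, 7.61 and 6.97 in control (log2 fold change -0.10, adjusted p = 0.955). Of the 7 class 3 genes, 3 were above the array median on all arrays.

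SEMA5A is a transmembrane semaphorin with thrombospondin repeats. Probe set 213169_at read 6.75, 6.71 and 6.91 with MPA and 7.42, 8.10 and 7.61 in control. The groups did not overlap, and the log2 fold change of -0.92 was called (SE 0.17, adjusted p = 0.0355). The brightest probe set (205405_at) read 7.37, 7.10 and 7.18 with MPA and 7.68, 8.27 and 7.58 in control, a log2 fold change of -0.62 that was not called (adjusted p = 0.209) and was -0.41 without control 2. The remaining probe set gave -0.73 (adjusted p = 0.0639), so that the groups lay apart on each of the 3 SEMA5A probe sets. The call of 213169_at was lost without MPA 1, MPA 2, MPA 3 or control 3 (up to 0.163).

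The class 4 and class 6 semaphorins, which span the membrane, gave 0 calls by limma or SAM on their brightest probe sets. On these probe sets, 0 genes had an unadjusted p under 0.05. A dimmer SEMA6D probe set (226492_at), below the array median on every array, had groups apart. Its log2 fold change of -0.28 was not called (limma unadjusted p = 0.0288, adjusted p = 0.38). The 6 class 4 genes had log2 fold changes of -0.27 to 0.37 and the 4 class 6 genes of -0.26 to 0.12. SEMA4G, a class 4 semaphorin named because its groups did not overlap, read 6.62, 6.77 and 7.17 with MPA and 6.58, 6.30 and 6.59 in control (log2 fold change 0.37, adjusted p = 0.488).

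The ephrins are split into the A class, anchored to the membrane by a lipid, and the B class, which spans it. EFNB2, a ligand of EPHB4 known from the border between arteries and veins, had log2 signals of 8.93, 8.61 and 8.65 with MPA and 9.59, 9.36 and 9.66 in control. The groups were apart, with means of 8.73 ± 0.18 with MPA and 9.54 ± 0.16 in control (SD, n = 3 each). The log2 fold change was -0.81 (SE 0.13, 95% interval -1.11 to -0.50, adjusted p = 0.0185), or 0.572 of the control signal. The other EFNB2 probe set (202669_s_at) read 8.07, 7.64 and 7.62 with MPA and 8.90, 8.35 and 8.48 in control, a log2 fold change of -0.80 of like size that missed the threshold (adjusted p = 0.0761). EFNB2 lost its call without MPA 2, control 1 or control 3 (up to 0.119).

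The A ephrins gave 0 calls by limma or SAM among 5 genes, of which 2 had an unadjusted p under 0.05, with a median log2 fold change of -0.38. EFNA5, a ligand of EphA receptors, read 8.98, 8.81 and 8.59 with MPA and 9.32, 9.19 and 9.17 in control. Its groups did not overlap, and its log2 fold change of -0.43 was not called (95% interval -0.72 to -0.14, adjusted p = 0.202). The other EFNA5 probe sets gave -0.21, -0.21 and -0.17, and the mean of all its probe sets gave -0.26. EFNA2 read 7.74, 7.47 and 7.95 with MPA and 8.44, 7.91 and 8.12 in control, a log2 fold change of -0.44 with overlapping groups (adjusted p = 0.398). The other EFNA2 probe sets, below the array median on every array, gave -0.01 and 0.04, and the mean of all its probe sets gave -0.14. EFNA1, another A ephrin, lay on the other side of 0 (0.26, adjusted p = 0.672).

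SLIT2 encodes a secreted repellent that signals through ROBO1 and ROBO2. Its brightest probe set (209897_s_at) read 7.80, 7.56 and 7.64 with MPA and 8.07, 8.15 and 8.17 in control, a log2 fold change of -0.46 (adjusted p = 0.0862). Probe set 228850_s_at read 5.85, 5.90 and 5.99 with MPA and 6.57, 6.44 and 6.63 in control, and its log2 fold change of -0.63 was called (SE 0.10, adjusted p = 0.0193). The remaining SLIT2 probe set gave -0.39 (adjusted p = 0.171), and the groups were apart on all 3. The call was lost without MPA 1, MPA 2, control 1 or control 3 (up to 0.136). SLIT1 and SLIT3 had log2 fold changes of 0.06 and 0.12.

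On their brightest probe sets, the netrins gave 0 calls by limma or SAM and 0 genes with an unadjusted p under 0.05. NTN1, the secreted ligand of DCC and UNC5 receptors, read 5.93, 6.0 and 6.20 with MPA and 6.07, 5.99 and 6.25 in control (log2 fold change -0.06, 95% interval -0.34 to 0.22, adjusted p = 0.950, with -0.14 to 0.01 when 1 array was left out). NTN4, a netrin of basement membranes, read 5.29, 5.24 and 5.00 with MPA and 5.08, 5.75 and 5.47 in control (log2 fold change -0.26, adjusted p = 0.745, but -0.17 without MPA 3, -0.43 without control 1 and -0.10 without control 2). Both groups overlapped in these genes. NTNG1, a membrane-anchored netrin, read 4.98, 4.98 and 4.94 with MPA and 4.99, 5.41 and 5.06 in control, below the array median on every MPA array (log2 fold change -0.18, adjusted p = 0.761, but -0.06 without control 2). Its groups did not overlap, though MPA 1 and control 1 were nearly equal. A dimmer NTNG1 probe set (236088_at), below the median on every array, also had groups apart. Its log2 fold change of -0.55 was not called (adjusted p = 0.163), and the remaining one gave -0.17.

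**Figure D2:**
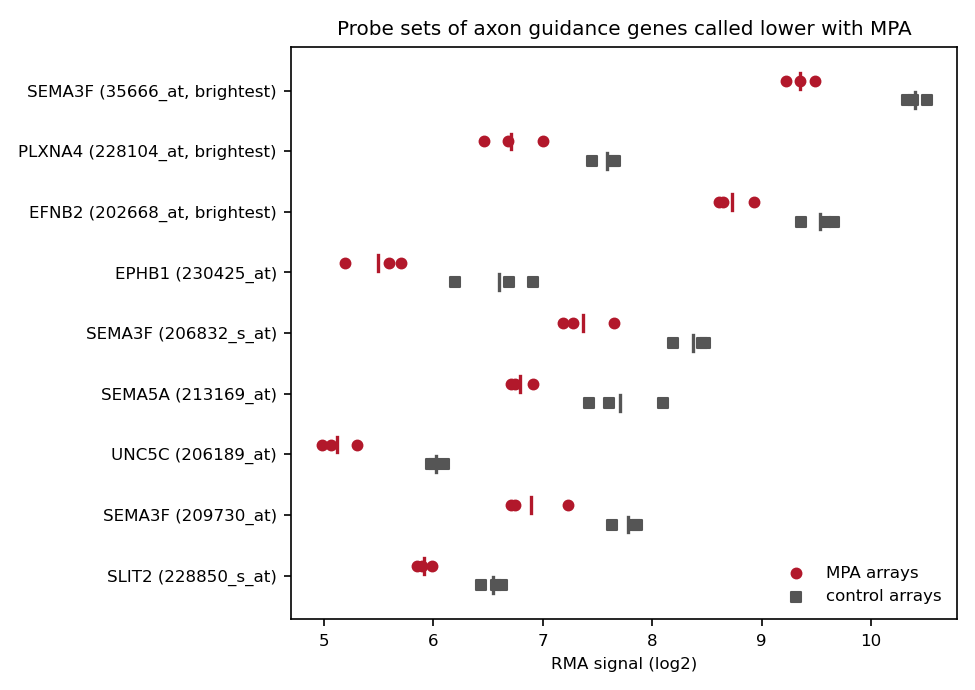
RMA signal (log2, horizontal axis) of the 9 probe sets called lower, with MPA arrays as circles and control arrays as squares; vertical ticks are group means. On each of the 9, all MPA arrays lie below all control arrays.

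Among the receptors, PLXNA4 was called. It forms a receptor complex with neuropilin 1 for SEMA3A and also binds class 6 semaphorins. Its brightest probe set (228104_at) read 6.68, 6.46 and 7.0 with MPA and 7.66, 7.45 and 7.65 in control. The groups were apart, with means of 6.71 ± 0.27 with MPA and 7.59 ± 0.12 in control (SD, n = 3 each). The log2 fold change was -0.87 (SE 0.15, 95% interval -1.21 to -0.53, adjusted p = 0.0227), or 0.546 of the control signal. The other 3 probe sets of PLXNA4 had log2 fold changes of -0.42, -0.40 and -0.09 (adjusted p 0.398, 0.431 and 0.916), with overlapping groups, and 1 of these 3 was above the array median on all arrays. The call was lost without MPA 1, MPA 2, control 1 or control 3 (up to 0.134) and with the 4 probe sets averaged (log2 fold change -0.45, 0.0832).

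Limma called 0 of the remaining 8 plexins, with an unadjusted p under 0.05 in 2 of them, while PLXNA1 was called higher by SAM. PLXNA1, a partner of the neuropilins that is named here because of its values, read 8.58, 8.37 and 8.62 with MPA and 8.15, 8.02 and 8.21 in control. Its groups were apart, and its log2 fold change of 0.40 was the highest of the 69 genes (95% interval 0.13 to 0.66, adjusted p = 0.196). The other PLXNA1 probe sets, 221537_at and 1558140_at, gave 0.13 and 0.24 with overlapping groups (adjusted p 0.847 and 0.647). PLXNB2, a receptor of class 4 semaphorins, read 10.61, 10.57 and 10.97 with MPA and 10.53, 10.35 and 10.51 in control (log2 fold change 0.25, adjusted p = 0.622, but 0.13 without MPA 3). PLXNC1, the receptor of SEMA7A, also chosen by its values, read 5.24, 5.59 and 5.36 with MPA and 5.83, 5.75 and 5.86 in control (log2 fold change -0.42, adjusted p = 0.181). The other PLXNC1 probe sets, below the array median on every array, gave 0.03, -0.02 and 0.01. The plexins thus lay on both sides of 0. The neuropilins NRP1 and NRP2, co-receptors without a signaling domain of their own, had log2 fold changes of -0.25 and 0.01 (adjusted p 0.675 and 0.997). NRP1 read 5.97, 6.36 and 6.12 with MPA and 6.16, 6.54 and 6.51 in control, and its log2 fold change was -0.16 without MPA 1.

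UNC5C is a repulsive netrin receptor. Its brightest probe set (227838_at) read 7.91, 7.76 and 8.31 with MPA and 8.55, 8.79 and 8.78 in control, a log2 fold change of -0.72 just above the threshold (SE 0.16, adjusted p = 0.0682). Probe set 206189_at read 5.07, 4.98 and 5.30 with MPA and 6.10, 5.98 and 6.01 in control, and its log2 fold change of -0.91 was called (SE 0.12, adjusted p = 0.00518). On both probe sets the groups were apart, although 206189_at was above the array median on only 4 of 6 arrays. This call remained whichever array was left out (adjusted p 0.00408 to 0.0416). The other 3 UNC5C probe sets were below the median on every array and had log2 fold changes of -0.21, -0.02 and 0.02. Of the other UNC5 receptors, the log2 fold change was -0.23 for UNC5A, 0.00 for UNC5B and 0.04 for UNC5D. A dimmer UNC5B probe set (226899_at) read 4.80, 5.17 and 4.87 with MPA and 5.63, 5.60 and 5.41 in control, with groups apart and a log2 fold change of -0.60 that SAM called and limma did not (adjusted p = 0.0703).

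The Eph receptors gave 0 calls by limma on their brightest probe sets, with an unadjusted p under 0.05 in 2 EPHA and 1 EPHB genes and a SAM call for EPHA2. EPHB1, a receptor of B ephrins, read 5.85, 6.04 and 6.19 with MPA and 6.63, 6.26 and 6.45 in control on its brightest probe set (log2 fold change -0.42, adjusted p = 0.264). Probe set 230425_at read 5.71, 5.19 and 5.60 with MPA and 6.91, 6.20 and 6.69 in control, and its log2 fold change of -1.10 was called (SE 0.20, adjusted p = 0.0340). The groups did not overlap on either, and the remaining EPHB1 probe set gave -0.12. The call held only without control 2 (adjusted p 0.00969) and otherwise was lost (up to 0.170). EPHB3, a receptor that is a Wnt target in intestinal crypts, read 6.53, 6.33 and 6.91 with MPA and 6.62, 6.34 and 6.44 in control (log2 fold change 0.12, 95% interval -0.25 to 0.49, adjusted p = 0.911, with -0.04 to 0.25 when 1 array was left out). EPHB4, the main receptor of EFNB2, read 8.72, 8.68 and 8.93 with MPA and 9.24, 8.81 and 8.97 in control (log2 fold change -0.23, adjusted p = 0.684, but -0.11 without control 1).

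Of the 9 EPHA genes, EPHA2, an ephrin-A receptor common in epithelial tumours, read 8.81, 9.02 and 9.34 with MPA and 9.70, 9.51 and 9.81 in control. Its groups were apart, and the log2 fold change of -0.62 was not called (95% interval -0.97 to -0.26, adjusted p = 0.119). EPHA7 read 11.01, 11.00 and 10.74 with MPA and 10.38, 11.04 and 10.55 in control, with overlapping groups (log2 fold change 0.26, adjusted p = 0.744, but 0.12 without control 1 and 0.46 without control 2). The other EPHA7 probe sets gave 0.31, 0.40 and 0.37, also with overlapping groups and without a call. The last of these (1554629_at) had a limma unadjusted p of 0.0331 (adjusted p = 0.405). Of the SLIT receptors, ROBO1 read 8.87, 8.75 and 8.76 with MPA and 8.83, 9.32 and 8.97 in control (log2 fold change -0.24, 95% interval -0.56 to 0.08, adjusted p = 0.666, but -0.10 without control 2). The 4 ROBO genes ranged from -0.24 to 0.04 in log2 fold change.

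**Figure D3:**
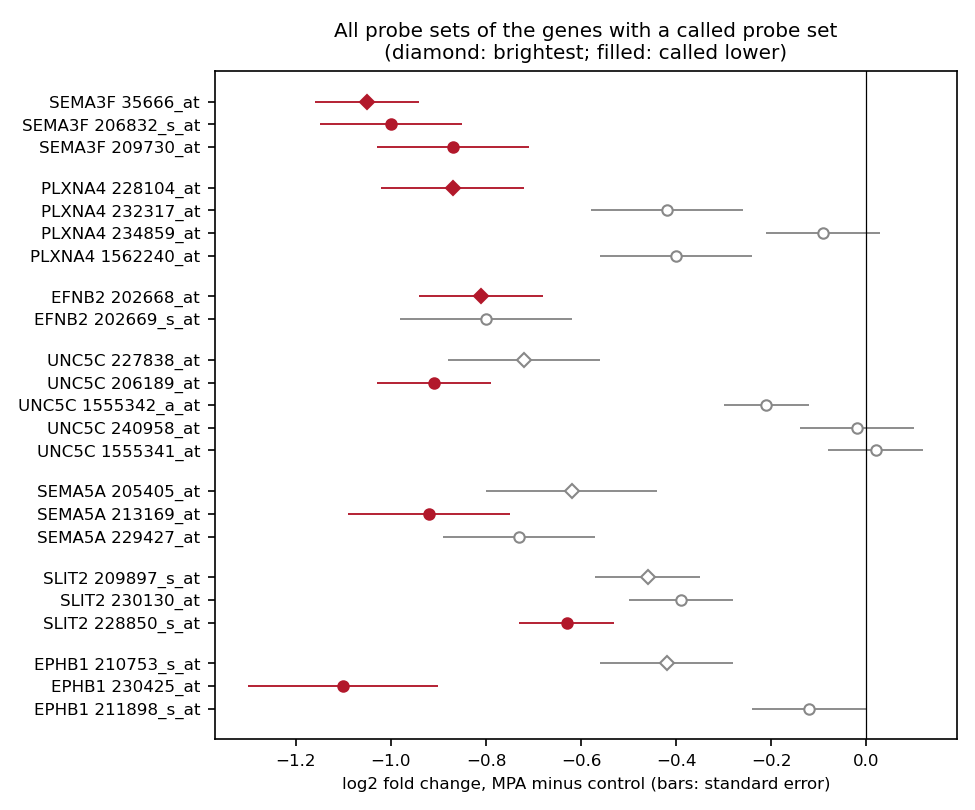
The log2 fold change (MPA minus control, horizontal axis) of every probe set of the 7 genes with a called probe set; diamonds are the brightest probe set, filled symbols were called lower and bars are the standard error from limma. The SEMA3F probe sets lie between -0.87 and -1.05, while the UNC5C probe sets spread between -0.91 and 0.02.

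Because 50 of the 69 genes had more than 1 probe set, the call depended on which was read. Of the 172 probe sets, 9 were called lower and 0 higher. All 9 kept the call with no fold minimum, the setting in which all 54613 probe sets tested gave 444 lower and 663 higher. On brightest probe sets, 229 of all genes were called lower and 345 higher, with or without the fold minimum. By gene, 7 had at least 1 probe set called lower (10.1%, where all genes gave 1.36% lower and 2.05% higher). Guidance genes had 2.49 probe sets each and all genes 2.08, which bears on that comparison. The array cannot say which transcripts the probe sets of 1 gene detect, as their positions were not used here.

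**Figure D4:**
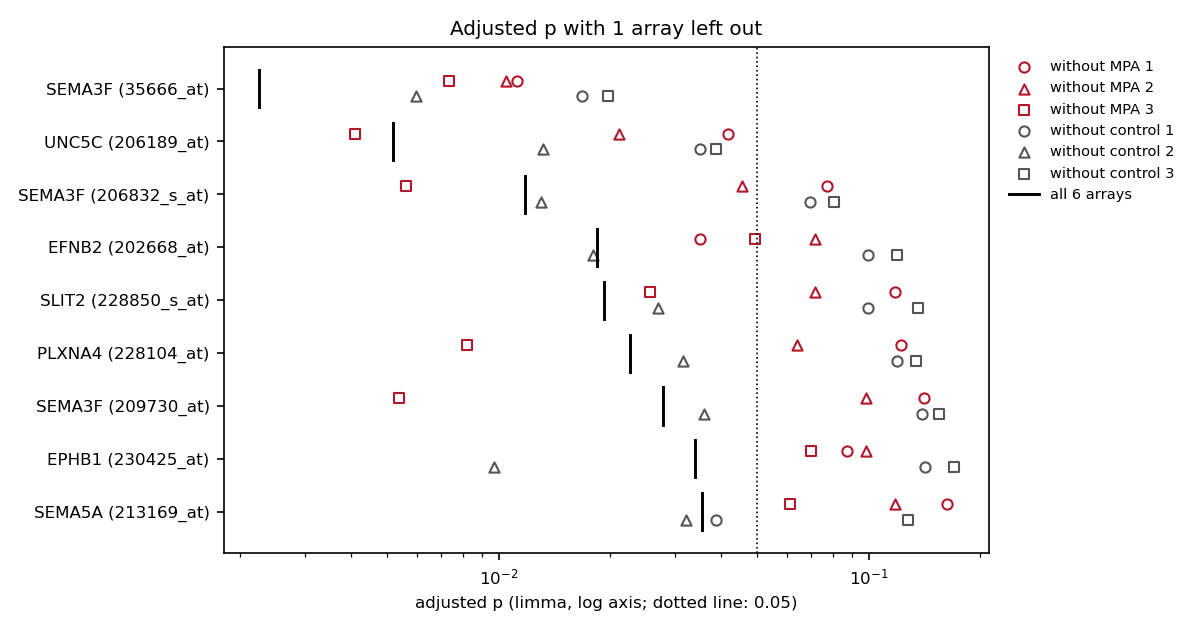
Adjusted p from limma (horizontal log axis) of each called probe set with all 6 arrays (bars) and with 1 array left out (circles, triangles and squares for array 1, 2 and 3, MPA in red and control in grey). The dotted line is the threshold of 0.05, which the brightest SEMA3F probe set (up to 0.0198) and UNC5C 206189_at (up to 0.0416) did not cross.

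Known binding partners of the called genes can be read beside them. SEMA3F was called lower, while its receptor NRP2, which was not called, read 5.71, 5.76 and 6.06 with MPA and 5.86, 5.70 and 5.96 in control. PLXNA1, a partner of the neuropilins, had a log2 fold change of 0.40, called higher by SAM but not by limma. EFNB2 was called lower, with 1 of the 3 probe sets of its receptor EPHB1 called lower and EPHB4 not called. PLXNA4 was called lower, and its ligand SEMA3A and its partner NRP1 were not called. The difference between a ligand and its receptor was not tested.

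Of 73 listed co-receptors, other ligands and intracellular partners of these families, 68 were measured, 3 rose and 3 fell (4.41% each, where 1.74% of all genes were called higher and 1.16% lower), with a median log2 fold change of -0.01 against 0.02 in all genes. The list was chosen with earlier results of these data known, so these shares cannot show an excess. NRCAM, an adhesion molecule of the L1 family that associates with neuropilin 2 in mouse, had log2 signals of 7.52, 7.40 and 7.23 with MPA and 4.73, 5.32 and 4.71 in control. It rose 5.51-fold (log2 fold change 2.46, SE 0.18, adjusted p = 2.84e-04), and the call held whichever array was left out (up to 0.00387). NRCAM was above the array median on only 4 of 6 arrays, with control 1 and control 3 below it, so the size of this fold rests on dim control signals. FLRT2 and FLRT3 encode membrane proteins that bind UNC5 receptors. FLRT2 read 6.66, 6.63 and 6.10 with MPA and 7.53, 8.01 and 7.82 in control, and it fell by 1.32 on the log2 scale (adjusted p = 0.00802, lost without control 3 at 0.0541). FLRT3 read 6.11, 6.17 and 5.80 with MPA and 6.93, 7.53 and 6.84 in control, and it fell by 1.07 (adjusted p = 0.0279). On both FLRT genes every MPA array was below every control array. FLRT3 kept its call only without control 2 (otherwise up to 0.111). ITGB1, an integrin chain, and ERBB2, a receptor tyrosine kinase, rose by 0.86 and 0.83 on the log2 scale, and L1CAM fell by 0.89 (adjusted p 0.0265, 0.0439 and 0.0118). ITGB1 kept its call in 1 and ERBB2 in 0 of the 6 fits with an array left out, and L1CAM in 3.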

How the data were processed

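RNA from IKPRAB-36 cells was measured on 6 Affymetrix U133 Plus arrays. Log2 values made by the authors with RMA were the starting point; RMA subtracts background, equalizes the arrays and combines the probes of each probe set into 1 value. The RMA software version and the genome build are not given in the sources used here. Of 54675 probe sets, 62 Affymetrix controls were left out and 54613 tested. Of these, 41091 had 1 gene symbol (41037 matched by Entrez identifier), 1801 several and 11721 none, and only those with 1 symbol were named. Arrays have no read depth, and their number limits the precision: an exact permutation test of 3 against 3 arrays cannot go below p = 0.1.

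MPA and control were compared by a two-sided limma test (version 3.58.1, lmFit with eBayes, under R 4.3.3), with Benjamini-Hochberg adjustment over all probe sets tested. SAM, the method of the study, was rewritten and run with delta 0.53 and all 20 relabelings, its constant at the 55th percentile. The alternatives were SAM, the replicate number as a block, an intensity trend, no fold minimum or one of 2, dim probe sets left out, a second quantile normalization, scaling by housekeeping genes, averaging the probe sets of each gene and each array left out in turn. Counting a gene when any of its probe sets was called was chosen after seeing the data. The steps were tested on simulated data. The members, gene lists and rules were chosen with earlier results of these data known. Values on every array are given for called genes, genes with another probe set called, EPHB3, the brightest gene of each family and, in families without a call, the one that changed most. SEMA3A, SEMA3C, SEMA4G, PLXNA1, PLXNC1 and NRP2 are outside that rule and were named after their values were seen. So were the single values of EFNA1, SEMA6D, SLIT1, SLIT3, UNC5A, UNC5B and UNC5D.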

Additional observations from a re-analysis of the deposited data

How the results depend on the processing

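The number of guidance genes called lower, 3 in the main comparison, was 6 by SAM (adding EPHA2, SLIT2 and UNC5C), 6 with the replicate number as a block (adding EPHA2, SEMA3C and UNC5C), 1 with a fold minimum of 2 (SEMA3F) and 7 when any probe set of a gene counted, a choice made after seeing the data. The share of all genes called lower moved too: it was 1.16% in the main comparison, 2.13% by SAM, 1.91% with the block, 0.415% with the fold minimum of 2, 1.36% with any probe set and 0.435% to 1.17% with 1 array left out. The number of guidance genes called lower ranged from 1 to 5 with 1 array left out: 1 without MPA 2, control 1 or control 3, 2 without MPA 1, and 5 without MPA 3, where EPHA2 (adjusted p = 0.0336) and UNC5C (0.0142) joined. The number called higher, 0, was 1 by SAM (PLXNA1). By limma 13 genes (18.8%) and 11.8% of all genes had an unadjusted p under 0.05. When the probe sets of each gene were averaged, 4 genes were called lower, where all genes gave 1.09%. These were EFNB2, SEMA3F, SEMA5A and SLIT2, and PLXNA4 lost its call (-0.45, adjusted p = 0.0832). Values below the threshold changed sign for 2 genes: NTN1 was 0.12 with all probe sets averaged and 0.01 without control 3 (-0.14 to 0.01 with 1 array left out), and EPHB3 was -0.04 without MPA 3 (-0.04 to 0.25). The cause was not tested. Of the 284 values of 19 named genes under the alternatives, 262 kept their direction and side of the threshold, 10 lost the call, 9 gained it and 3 changed sign. Same-numbered arrays deviated together with correlations of -0.017, 0.523 and 0.326, and differently numbered arrays with correlations of -0.479 to 0.352. So few arrays cannot settle whether the numbers mark pairs. In the labels the samples share only a number. Signal near the array median limits dim genes such as NTNG1 and the UNC5C probe set 206189_at.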
